A study of Mus musculus with 12 samples.

Results

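The Hedgehog pathway genes described here are 10 genes whose products receive and relay the Hedgehog signal: Ptch1, Smo, Gli1, Gli2, Gli3, Sufu, Hhip, Boc, Cdon and Gas1. They were chosen by symbol among the 27179 genes of the deposited tables, and all 10 were found. The series measured bulk RNA of mouse dorsal cortex in 12 libraries, 3 for each of 4 groups. E14.5 cKO and E16.5 cKO embryos are conditional knockouts of Ash2l made with D6-Cre, a Cre recombinase whose D6 promoter is active in the dorsal telencephalon. E14.5 WT and E16.5 WT embryos are the wild types of the same ages, and all embryos are of strain C57BL/6. The Ash2l protein is shared by the COMPASS family of histone methyltransferases, enzymes that write H3K4 methylation, and the study asked about its role while the cortex forms. The deleted exons are not given in the labels, and cells in which D6-Cre is not active keep Ash2l.

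Hedgehog ligands such as Shh bind the receptor Ptch1 and relieve its block of the membrane protein Smo, which then lets Gli transcription factors at the primary cilium turn from repressors into activators. Cdon, Boc and Gas1 are cell-surface co-receptors, Hhip is a decoy that binds the ligand, and Sufu holds Gli proteins inactive. Ptch1, Hhip and Gli1 are also direct targets of the pathway, and in the telencephalon Shh is made ventrally, while the Gli3 repressor is known for its part in dorsal identity.

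The libraries hold between 14318147 and 24719047 counted fragments. Each title holds a first and a second number. Each age has 3 first numbers, each shared by 1 cKO and 1 WT library, whose second numbers differ. Libraries carry here the letters A to C by rising first number, so that cKO A and WT A have the same one. The meaning of these numbers is not given, and p-values therefore reflect library-to-library spread that can be partly technical. All 10 dorsal cortex markers were detected in every group, with summed levels between 2118 and 3125 CPM per library, where CPM is the count of a gene scaled to a common library size (TMM). Xist and 4 Y-linked genes showed that all 3 E14.5 cKO libraries were female and all 3 E14.5 WT libraries male, so sex and genotype cannot be told apart at E14.5. At E16.5 each genotype had 1 female and 2 male libraries. Ash2l itself was at 46.9, 59.9 and 51.4 CPM in E14.5 cKO libraries A, B and C, against 126, 143 and 118 CPM in E14.5 WT libraries. At E16.5 it was at 54.3, 60.6 and 59.3 CPM in cKO libraries, against 135, 129 and 135 CPM in WT libraries. All 6 cKO libraries were below all 6 WT libraries, as their labels have it.

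The receptor gene Ptch1 was the member that differed most clearly between genotypes. All of its cKO libraries lay below all of its WT libraries at both ages, and it passed the test at E16.5 but not at E14.5. The gene (Entrez 19206) spans chr13:63511533-63565520 in mm10, on the minus strand, and its counted exons form 23 blocks of 4305 bases in all. At E14.5 its level was 10.4, 16.9 and 14.6 CPM in cKO libraries A, B and C, against 21.6, 37.2 and 26.5 CPM in WT libraries. At E16.5 it was 27.3, 21.7 and 18.6 CPM in cKO libraries, against 34.3, 35.0 and 32.6 CPM in WT libraries. The gap between the highest cKO and the lowest WT library was narrower than the range of the WT libraries at E14.5 and wider than it at E16.5. In both genotypes at E14.5 library B was the highest and A the lowest.

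The E16.5 means of Ptch1 were 22.5 ± 4.45 CPM in cKO and 34.0 ± 1.23 CPM in WT (SD, n = 3 each), a log2 fold change of -0.60 of cKO over WT (SE 0.140, edgeR quasi-likelihood test, Benjamini-Hochberg adjusted p = 0.0260). It was the only one of 10 tested members that passed 0.05 there, while 15.9% of the 14865 genes tested passed. With the shared number as a block it stayed called at -0.61 (adjusted p = 0.00184). At E14.5 the means were 13.97 ± 3.26 CPM in cKO and 28.5 ± 7.98 CPM in WT (SD, n = 3 each), a log2 fold change of -1.02 (SE 0.241, adjusted p = 0.0790). None of the 9 members tested at E14.5 passed, against 2.01% of 14788 genes. At an unadjusted p below 0.05 there was 1 member, Ptch1, among 2989 genes, and DESeq2 also called 1 member, Ptch1 at -1.03 (adjusted p = 0.00345), among 1278 genes or 8.64%. The change of Ptch1 itself did not pass a test of the age difference, with an effect at E16.5 minus that at E14.5 of 0.43 on the log2 scale (SE 0.301, adjusted p = 0.99994).

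Whether Ptch1 passed at E16.5 depended on the libraries in the fit, though its direction did not. Its call was lost without WT A at -0.59 (adjusted p = 0.0742), without WT B at -0.57 (adjusted p = 0.0980), without WT C at -0.62 (adjusted p = 0.0543) and without cKO B at -0.57 (adjusted p = 0.104). The call held without cKO A at -0.76 (adjusted p = 0.00269) and without cKO C at -0.48 (adjusted p = 0.0452). The share of all genes called was 7.45% without WT A, 6.5% without WT B, 10.9% without WT C and 6.59% without cKO B. It was 19.0% without cKO A and 12.2% without cKO C, against 15.9% with no library left out. When sex was added to the fit of the 6 E16.5 libraries, a setting chosen after seeing the data, Ptch1 was at -0.61 (adjusted p = 0.0391). In the fits of all 12 libraries its E16.5 call was lost, at -0.60 (adjusted p = 0.107) with sex and at -0.59 (adjusted p = 0.0913) without it. In the fit of all 12 libraries with sex, its E14.5 value was -0.85 (adjusted p = 0.252), against -1.03 (adjusted p = 0.0146) without sex. Because sex and genotype coincide at E14.5, the sex term of this fit comes from the E16.5 libraries alone and is taken as equal at both ages. The E14.5 values of this fit therefore do not separate sex from genotype. In the authors' deposited tables the log2 ratio of Ptch1 is given as WT over knockout, at 0.85 (SE 0.22, adjusted p = 0.00306) for E14.5 and 0.56 (SE 0.15, adjusted p = 0.00167) for E16.5, and no other member is below 0.05 there.

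**Figure D1:**
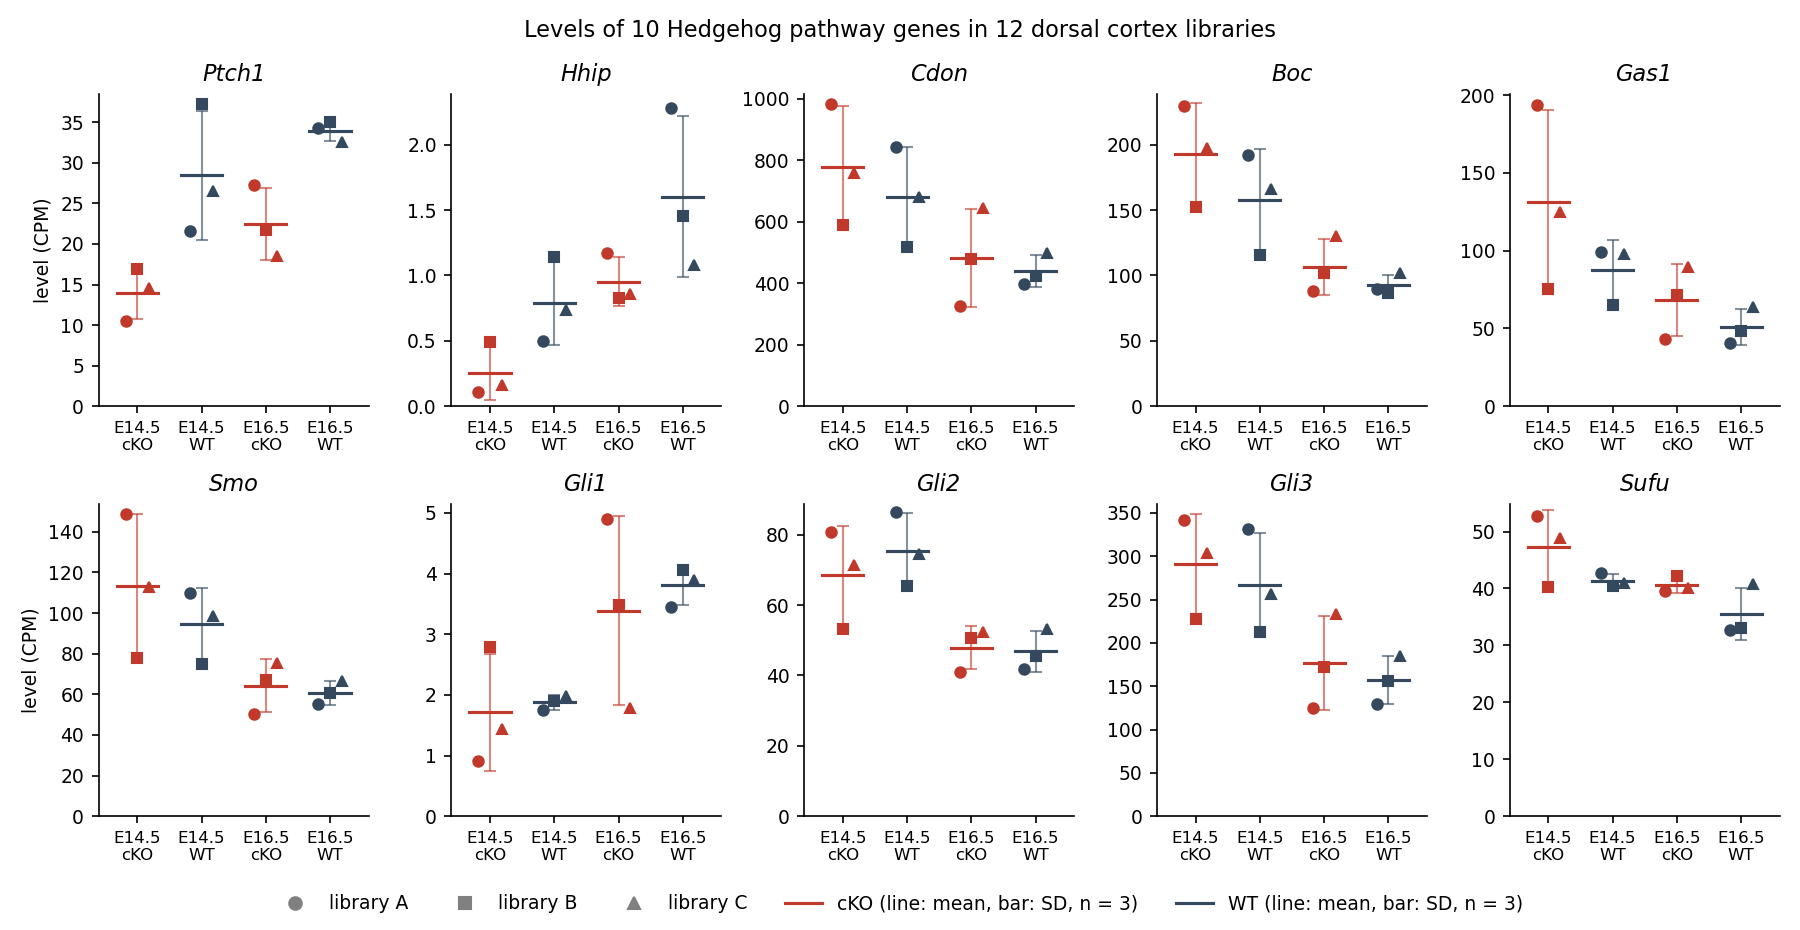
Levels of the 10 genes in CPM on the vertical axes, by group on the horizontal axes, with 1 point per library, the mean as a line and the SD as a bar (n = 3). The 3 cKO points of Ptch1 lie below the 3 WT points at both ages, while the points of Smo, Gli1, Gli2, Gli3, Sufu, Boc, Cdon and Gas1 overlap between genotypes.

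Markers of ventral telencephalon and GABAergic neurons moved with Ptch1 between E14.5 libraries. These 13 markers summed to 84.1, 137 and 131 CPM in E14.5 cKO libraries A, B and C, against 126, 396 and 191 CPM in E14.5 WT libraries, which is the library order of Ptch1 in both genotypes. None of the 10 markers tested passed at E14.5, and their median log2 fold change was -1.64, beside 0.03 over all genes. No marker of the list was at 0 in every library of an E14.5 group. The part of ventral tissue in the E14.5 value was not tested. Without WT B, the library with the highest sum, Ptch1 was at -0.78 (adjusted p = 0.184), and without both WT B and cKO A it was at -0.62 (adjusted p = 0.0569). WT B also held the highest Ptch1 level of its group and cKO A the lowest of its own. Leaving them out was therefore bound to make the change smaller. At E16.5 the sums were 220, 171 and 150 CPM in cKO libraries, against 217, 200 and 166 CPM in WT libraries. Those ranges overlapped, and the Ptch1 levels did not. In E16.5 cKO the sums fell from A to C, as the Ptch1 levels did, while in E16.5 WT the sum was highest in A and Ptch1 in B. At E16.5, 0 of 9 tested markers passed, with a median of -0.17 and Lhx8 at 0 in all 3 WT libraries. The part of ventral tissue in the E16.5 value was not tested either. With the block 1 of the 9, Dlx1, passed as lower, beside 17.9% of all genes.

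Hhip, the decoy receptor and the other target that restrains the pathway, was the rarest of the 10 transcripts. Its E14.5 counts were 2, 7 and 4 in cKO libraries A, B and C, or 0.108, 0.488 and 0.164 CPM, against 10, 18 and 16 in WT libraries, or 0.4998, 1.138 and 0.738 CPM. All 3 cKO libraries were below all 3 WT libraries, but Hhip did not reach the count filter at E14.5 and was not tested. With no filter its log2 fold change was -1.68 (SE 0.623, adjusted p = 0.226). At E16.5 Hhip was at 1.17, 0.830 and 0.858 CPM in cKO libraries, against 2.28, 1.45 and 1.08 CPM in WT libraries. The groups overlapped there, cKO A being above WT C, and the log2 fold change was -0.75 (SE 0.360, adjusted p = 0.198). Its age difference was 0.96 (SE 0.705) and did not pass either. Beside Hhip and Ptch1, no member had all cKO libraries on one side of all WT libraries at E14.5, where 26.8% of genes did, and at E16.5 Ptch1 alone did, beside 37.5% of genes.

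Gli1, the activator that is commonly read as a gauge of pathway activity, was also rare. It was at 0.915, 2.79 and 1.44 CPM in E14.5 cKO libraries A, B and C, against 1.75, 1.90 and 1.98 CPM in E14.5 WT libraries. At E16.5 it was at 4.89, 3.47 and 1.78 CPM in cKO libraries, against 3.45, 4.07 and 3.90 CPM in WT libraries. The cKO libraries spread to both sides of the narrow WT range at each age. The log2 fold changes were -0.15 (SE 0.407, adjusted p = 0.863) at E14.5 and -0.16 (SE 0.333, adjusted p = 0.782) at E16.5. Their signs turned without single libraries, to 0.13 without cKO A at E14.5 and to 0.13 without cKO C at E16.5. Ptch1, Hhip and Gli1 thus all had negative values at both ages, of which 1 passed.

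The 3 promoters shown next are those of Ptch1 and Hhip, the members whose E14.5 libraries did not overlap, and of Sufu as a contrast whose libraries did. Each line gives the 250 bases before the start of the gene in the RefSeq promoter table (GRCm38.p6), 5′ to 3′ on the strand of the gene, with every CG in capitals, since COMPASS complexes mark CG-rich promoters in general. The windows are chr13:63565736-63565985 on the minus strand for Ptch1, chr8:80058009-80058258 on the minus strand for Hhip and chr19:46396646-46396895 on the plus strand for Sufu.
Ptch1: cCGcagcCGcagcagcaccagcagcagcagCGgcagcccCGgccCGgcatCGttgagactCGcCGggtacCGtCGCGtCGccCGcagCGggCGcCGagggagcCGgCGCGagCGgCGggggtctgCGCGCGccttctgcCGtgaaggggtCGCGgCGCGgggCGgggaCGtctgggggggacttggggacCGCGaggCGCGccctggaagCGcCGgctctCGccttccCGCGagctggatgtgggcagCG
Hhip: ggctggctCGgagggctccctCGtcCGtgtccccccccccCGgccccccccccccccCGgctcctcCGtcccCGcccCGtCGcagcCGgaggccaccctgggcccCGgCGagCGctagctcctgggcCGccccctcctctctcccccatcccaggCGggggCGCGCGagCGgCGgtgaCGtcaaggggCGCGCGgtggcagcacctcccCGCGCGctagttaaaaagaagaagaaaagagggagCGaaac
Sufu: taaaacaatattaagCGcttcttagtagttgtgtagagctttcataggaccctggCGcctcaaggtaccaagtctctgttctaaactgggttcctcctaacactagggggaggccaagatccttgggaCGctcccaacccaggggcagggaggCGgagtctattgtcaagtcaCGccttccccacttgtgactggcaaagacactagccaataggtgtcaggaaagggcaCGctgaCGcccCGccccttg
The Ptch1 window begins upstream of the gene end in the count table, since the RefSeq start used in the promoter table lies outside it. It holds 41 CG pairs, more than 98.9% of the 32851 promoters in the table, whose median is 6 with quartiles of 2 and 16. Hhip has 28 and Sufu 8. CG count did not set Ptch1 and Hhip apart from the rest, since Gli3 has 34, Gli2 22, Smo 15, Gas1 10 and Cdon 1. The Cdon window overlaps annotated exon sequence of Cdon itself, so its count is not that of bases upstream of the whole gene. The Gli3 and Gas1 windows overlap exons of Gm6556 and Gm48488 on the opposite strand. Gli1 and Boc had no entry. The letters GACCACCCA, the core of the sequence that Gli proteins bind, were searched on both strands of the same windows and occur in 0 of 8 members and in 74 of all promoters, or 0.225%.

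The co-receptor genes Cdon, Boc and Gas1 were the members with the highest levels or near them, and none passed the test between genotypes without the block. Cdon ran from 590 to 984 CPM in E14.5 cKO, against 517 to 842 CPM in E14.5 WT, and from 326 to 643 CPM in E16.5 cKO, against 395 to 498 CPM in E16.5 WT. Its log2 fold changes were 0.21 (SE 0.236, adjusted p = 0.664) at E14.5 and 0.13 (SE 0.218, adjusted p = 0.734) at E16.5. Boc was at 0.30 (SE 0.219, adjusted p = 0.479) and 0.19 (SE 0.139, adjusted p = 0.381). Cdon and Boc libraries overlapped widely between genotypes, and Cdon turned to -0.13 without E16.5 cKO C and to -0.02 without E14.5 cKO A.

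Gas1, the co-receptor anchored to the membrane by a lipid, was the member with the most positive change. It was at 193, 75.1 and 125 CPM in E14.5 cKO libraries A, B and C, against 99.3, 65.2 and 98.0 CPM in E14.5 WT libraries. At E16.5 it was at 43.4, 71.3 and 89.3 CPM in cKO libraries, against 40.2, 48.4 and 63.4 CPM in WT libraries. The ranges overlapped at both ages. Each cKO library was above the WT library of its own number in 3 of 3 cases at each age, which was not particular to Gas1. At E14.5 Smo, Gli3, Boc and Cdon were also higher in 3 of 3, and Ptch1, Gli2 and Hhip lower in 3 of 3. At E16.5 Ptch1 and Hhip were again lower in 3 of 3. The share of all genes with such an outcome is not given. The log2 fold changes were 0.60 (SE 0.335, adjusted p = 0.365) at E14.5 and 0.41 (SE 0.260, adjusted p = 0.316) at E16.5. With the shared number as a block at E16.5, Gas1 passed at 0.39 (adjusted p = 0.00831). In that fit 2 of 10 members passed, Gas1 higher and Ptch1 lower, beside 14.3% of genes higher and 17.9% lower, or 32.2% in all. Deviations of same-numbered libraries from their group means correlated at 0.281, 0.210 and 0.112 for A, B and C at E16.5. At E14.5, where the numbers were not taken as pairs, the values were 0.272, 0.304 and -0.00218.

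Markers of meningeal fibroblasts, cells that lie on the cortex, were highest in E14.5 cKO A, as Gas1 was, and so were markers of blood vessels and blood. The 10 markers summed to 417, 64.7 and 98.8 CPM in E14.5 cKO libraries A, B and C, against 76.2, 53.3 and 107 CPM in E14.5 WT libraries, and none of them was at 0 throughout a group. None of 8 tested meningeal markers passed at E14.5, with a median of 1.76. Without both cKO A and WT B, Gas1 was at 0.03 (adjusted p = 0.966). Gas1 was at its highest cKO level in cKO A and its lowest WT level in WT B, so leaving out both was bound to lower this value. The part of meninges in the E14.5 value of Gas1 was not tested. At E16.5 the sums were 52.9 to 67.6 CPM in cKO libraries, against 58.1 to 79.0 CPM in WT libraries, and none of 6 tested markers passed, with a median of -0.17. The 9 choroid plexus markers were uneven at both ages. They summed to 539 CPM in E14.5 WT A, against at most 84.9 CPM in any other E14.5 library. In E16.5 WT C the sum was 680 CPM, against at most 43.4 CPM in any other E16.5 library. Their medians of cKO over WT were -1.13 at E14.5 and -1.37 at E16.5, with 0 of 8 passing at each age, and their part in the members' values was not tested. In bulk tissue, fewer or more cells of a type and less or more RNA per cell cannot be told apart.

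Smo, the membrane protein that Ptch1 restrains, did not pass between genotypes. Its libraries ran from 77.8 to 149 CPM in E14.5 cKO, against 74.9 to 110 CPM in E14.5 WT, and from 50.3 to 75.6 CPM in E16.5 cKO, against 55.1 to 66.6 CPM in E16.5 WT. The log2 fold changes were 0.27 (SE 0.248, adjusted p = 0.577) and 0.07 (SE 0.148, adjusted p = 0.774), and the sign turned to -0.06 without E16.5 cKO C. The cKO ranges enclosed the WT ranges at E16.5 and reached above them at E14.5.

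The transcription factors Gli2, mainly an activator, and Gli3, mainly a repressor, lay close together in both genotypes. Gli2 averaged 68.4 ± 14.1 CPM in E14.5 cKO and 75.5 ± 10.5 CPM in E14.5 WT, and 47.9 ± 6.12 CPM in E16.5 cKO and 46.9 ± 5.78 CPM in E16.5 WT (SD, n = 3 each). Its changes were -0.13 (SE 0.178, adjusted p = 0.728) and 0.02 (SE 0.125, adjusted p = 0.921). Gli3 averaged 291 ± 58.1 CPM in E14.5 cKO and 267 ± 60.0 CPM in E14.5 WT, and 177 ± 54.5 CPM in E16.5 cKO and 157 ± 27.7 CPM in E16.5 WT (SD, n = 3 each). Its changes were 0.14 (SE 0.205, adjusted p = 0.745) and 0.16 (SE 0.219, adjusted p = 0.655). For both genes the difference between genotypes was smaller than the spread of libraries within a group, and the sign of each turned without a single library. Sufu, the Gli inhibitor, was at 0.21 (SE 0.123, adjusted p = 0.390) and 0.18 (SE 0.105, adjusted p = 0.272), with 47.3 ± 6.40 CPM in E14.5 cKO and 41.4 ± 1.22 CPM in E14.5 WT, and 40.5 ± 1.38 CPM in E16.5 cKO and 35.5 ± 4.57 CPM in E16.5 WT (SD, n = 3 each). Its libraries overlapped at both ages, and it kept a positive value in all 14 alternatives at each age.

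**Figure D2:**
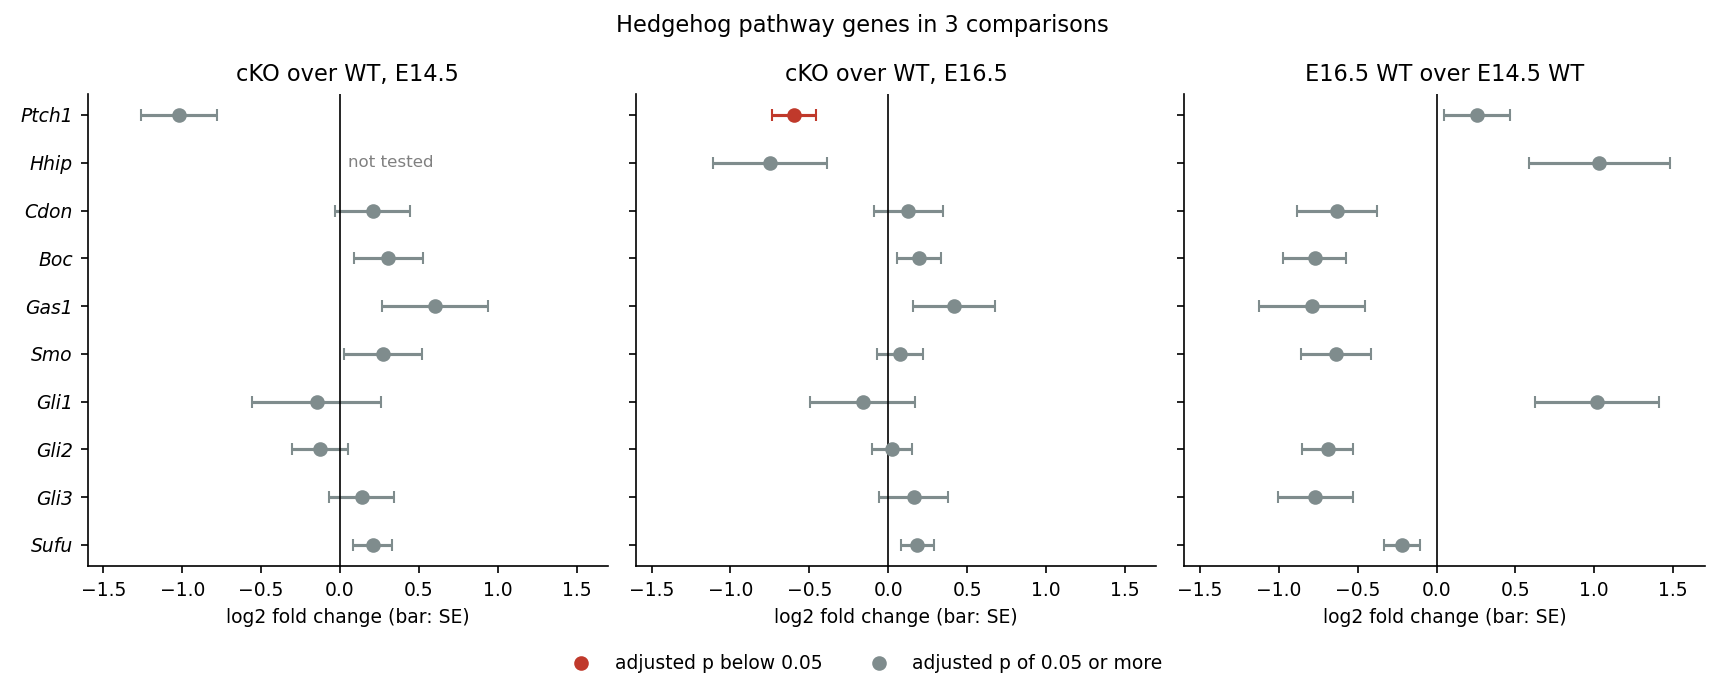
Log2 fold changes of the 10 genes on the horizontal axes (point, with SE as a bar) for cKO over WT at E14.5, cKO over WT at E16.5 and E16.5 WT over E14.5 WT, with red points for an adjusted p below 0.05. Ptch1 at E16.5, at -0.60, is the only red point, and 7 genes lie left of 0 in the WT comparison.

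Over all members the median log2 fold change of cKO over WT was 0.21 at E14.5, beside 0.03 over all genes tested, with 6 of 9 members above 0. At E16.5 it was 0.10, beside 0.02 over all genes, with 7 of 10 above 0. The E14.5 median depended on the libraries used, and without both WT B and cKO A it was -0.14, with 3 of 10 members above 0. Most members were at their lowest WT level in WT B and their highest cKO level in cKO A. Leaving out both was therefore bound to lower their values. At E14.5, 9 of 10 members had the same order of libraries in cKO as in WT, Gli1 being the exception. There Smo, Gli2, Gli3, Sufu, Boc, Cdon and Gas1 were lowest in B and highest in A in both genotypes, and Ptch1 and Hhip lowest in A and highest in B. At E16.5, 5 of 10 members, namely Smo, Gli2, Gli3, Cdon and Gas1, were lowest in A and highest in C in both genotypes.

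**Figure D3:**
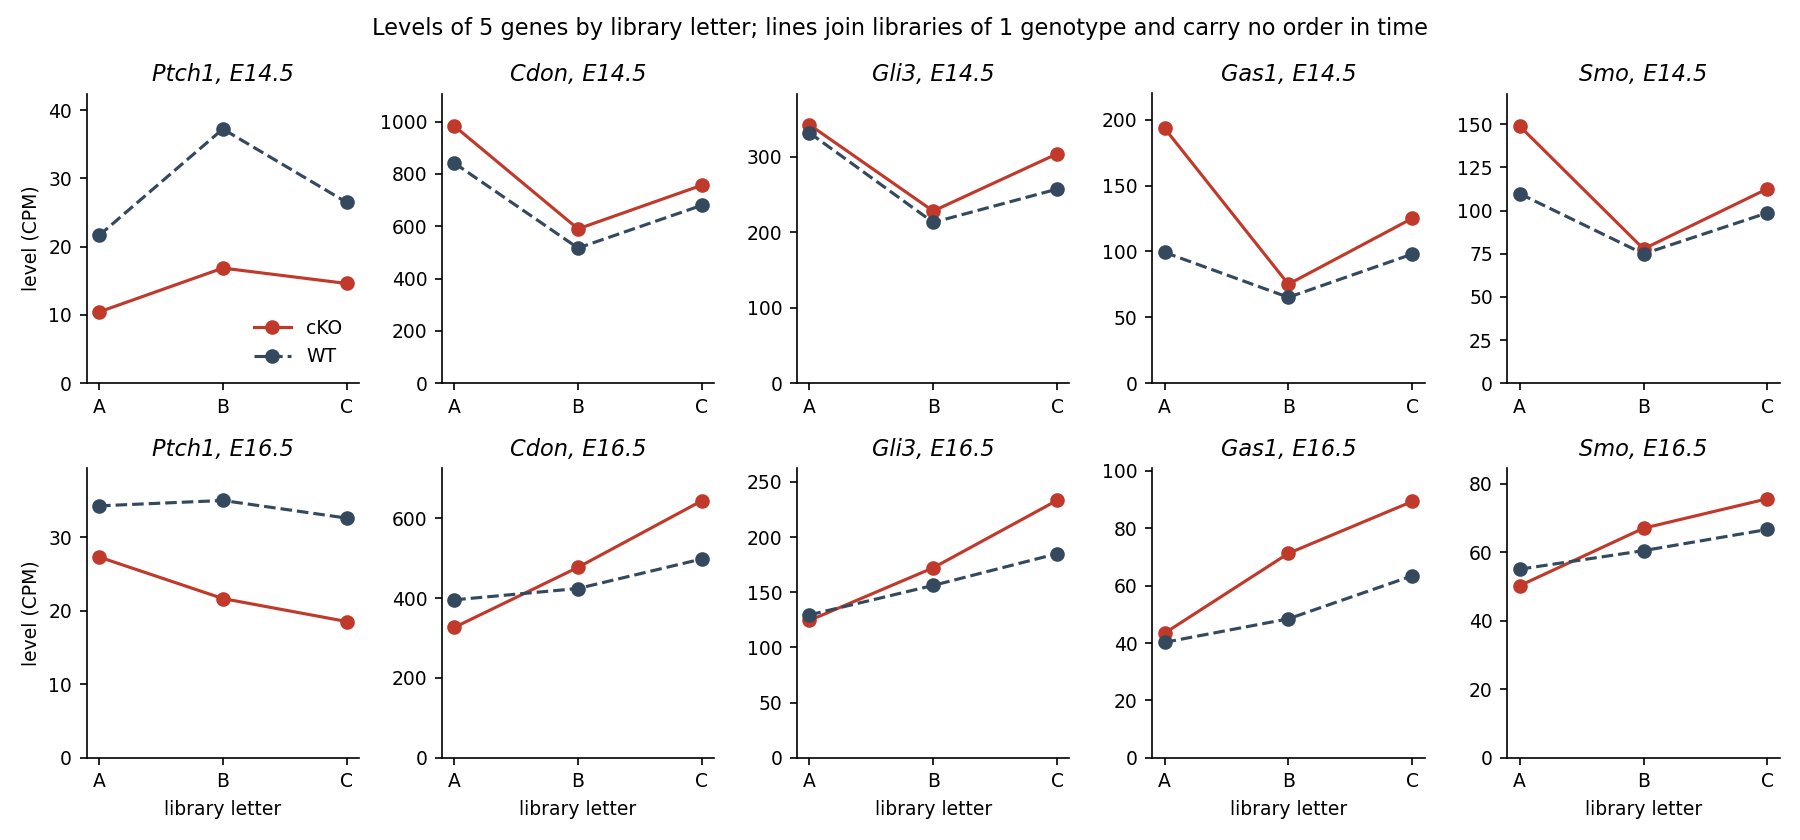
Levels in CPM (vertical axes) of Ptch1, Cdon, Gli3, Gas1 and Smo by library letter (horizontal axes) at E14.5 (top) and E16.5 (bottom), with cKO as solid and WT as dashed lines. At E14.5 Ptch1 peaks in library B of both genotypes, where Cdon, Gli3, Gas1 and Smo are lowest, and at E16.5 Ptch1 in cKO is highest in library A, where the other 4 genes are lowest.

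Levels were compared between genes per kilobase of counted exon. Cdon was highest in each group, with 108 CPM per kilobase in E14.5 cKO, 94.2 in E14.5 WT, 66.8 in E16.5 cKO and 60.9 in E16.5 WT, and its libraries did not overlap those of Boc, the next gene. Boc averaged 43.7 CPM per kilobase in E14.5 cKO, 35.7 in E14.5 WT, 24.0 in E16.5 cKO and 20.9 in E16.5 WT. Gas1, Gli3, Smo and Sufu followed Boc in each group, in varying order, and neighbours among these genes overlapped, except Smo and Sufu in E14.5 WT. Ptch1 stood below Gli2 in 3 of the groups, at 3.25 CPM per kilobase against 10.2 in E14.5 cKO, 6.61 against 11.3 in E14.5 WT and 5.23 against 7.14 in E16.5 cKO. In E16.5 WT Ptch1 was at 7.89 CPM per kilobase and Gli2 at 6.99, and the libraries of these genes overlapped at E16.5 in both genotypes. Gli1 and Hhip were lowest, down to 0.468 and 0.0279 CPM per kilobase in E14.5 cKO.

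**Figure D4:**
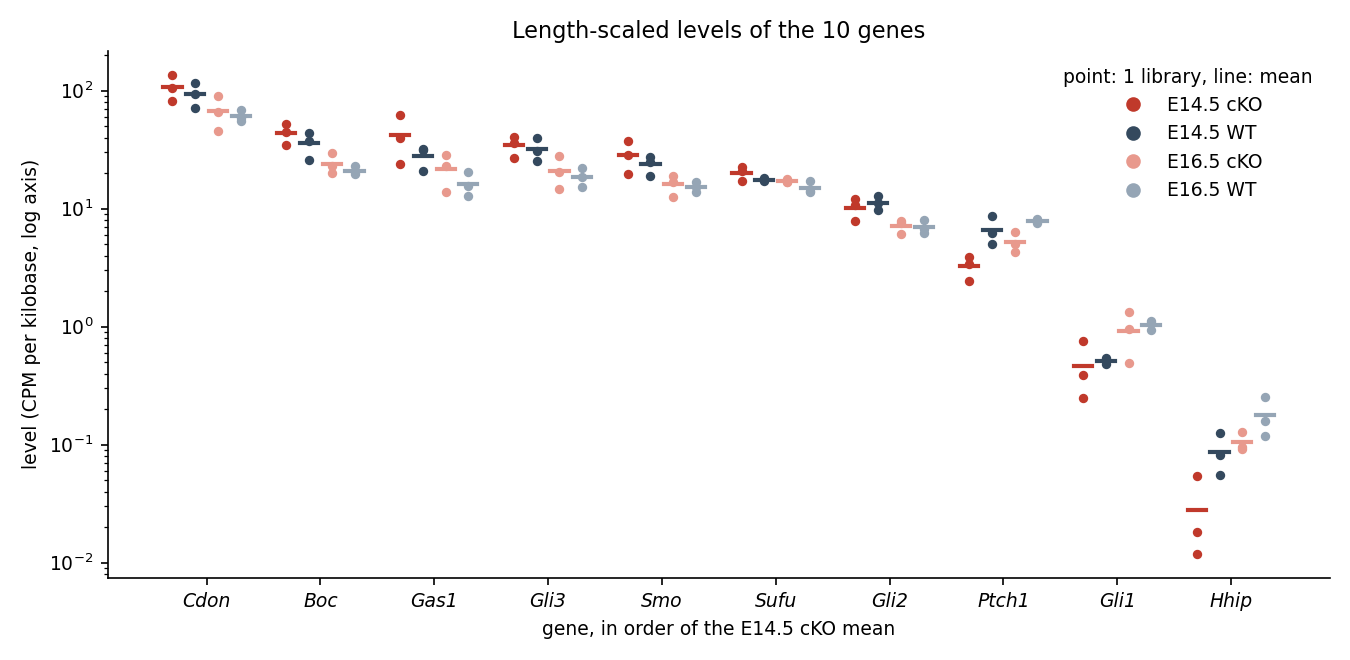
Levels per length in CPM per kilobase (log axis) of the 10 genes in the order of their E14.5 cKO mean, with 1 point per library and a line for the mean of each of the 4 groups. Cdon is highest and Hhip lowest in every group, and Ptch1 is the gene whose cKO points sit apart from its WT points at both ages.

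Between the wild-type ages, 7 members had values below 0 for E16.5 WT over E14.5 WT, and the 3 members that are targets had values above 0. No first number is shared between the ages, so any other difference between these sets of libraries cannot be told apart from age. None of 10 members passed in E16.5 WT against E14.5 WT, where 2.15% of 15338 genes did. At an unadjusted p below 0.05 there were 8 members and 4252 genes, and DESeq2 called 3 members lower, Gli2, Gli3 and Boc, beside 13.1% of genes in either direction. The lower values were led by Gas1 at -0.79 (SE 0.334, adjusted p = 0.154), Boc at -0.77 (SE 0.19998, adjusted p = 0.0572), Gli3 at -0.77 (SE 0.236, adjusted p = 0.0775) and Gli2 at -0.69 (SE 0.162, adjusted p = 0.0510). Smo was at -0.64 (SE 0.221, adjusted p = 0.101), Cdon at -0.63 (SE 0.251, adjusted p = 0.136) and Sufu at -0.22 (SE 0.112, adjusted p = 0.222). Gli2, for example, ran from 41.9 to 53.2 CPM in E16.5 WT libraries, against 65.5 to 86.5 CPM in E14.5 WT libraries.

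The values above 0 were those of the pathway targets among the members, Hhip at 1.03 (SE 0.447, adjusted p = 0.160), Gli1 at 1.02 (SE 0.392, adjusted p = 0.126) and Ptch1 at 0.26 (SE 0.210, adjusted p = 0.435). Of 13 Hedgehog-responsive genes outside the members, 8 were tested here and 0 passed, with a median of 0.09. The D-type cyclin genes Ccnd2 and Ccnd1, which had the smallest p-values, were both at -0.56 (adjusted p = 0.127 and 0.230), while others of that list lay above 0. Gli1 ran from 3.45 to 4.07 CPM in E16.5 WT libraries, against 1.75 to 1.98 CPM in E14.5 WT libraries. Gli1 lay wholly above, and Smo, Gli2, Gli3, Boc, Cdon and Gas1 wholly below, in E16.5 WT, so 7 of 10 members did not overlap, beside 35.3% of genes. The median over the members was -0.63, beside -0.01 over all genes. Some lists of cell type markers had negative medians too in E16.5 WT against E14.5 WT. The median was -0.53 for radial glia, where Hes1 and Hes5 passed as lower among 9 tested. It was -0.66 for ventral telencephalon and GABAergic neurons, where 1 of 11 passed as lower, and -0.29 for dorsal cortex, where none of 10 passed. The dorsal sums were 2488 to 2644 CPM in E16.5 WT libraries, against 2673 to 3125 CPM in E14.5 WT libraries, while the sums of the other 2 lists overlapped. Their part in the members' values was not tested. The E14.5 WT libraries were all male and the E16.5 WT libraries were not, and with sex in the fit the median was -0.67 and again 0 members passed. Without E14.5 WT B, edgeR called 2216 genes and among them 3 members as lower, namely Gli2 at -0.77 (adjusted p = 0.0271), Gli3 at -0.90 (adjusted p = 0.0423) and Boc at -0.94 (adjusted p = 0.0191). Leaving out a cKO library, which enters this fit through the shared spread, the count filter and the scaling, also changed calls. Gli2 and Boc were then called without E14.5 cKO A (adjusted p = 0.0239 and 0.0322, beside 1813 genes) or without E14.5 cKO B (adjusted p = 0.0249 and 0.0379, beside 1280 genes), and Gli2 without E16.5 cKO A (adjusted p = 0.0468, beside 548 genes). In the same 12-library fit the test of the age difference of the cKO effect called 0 of 15338 genes and no member (0.0%), with 318 genes and no member at an unadjusted p below 0.05 and 0 by DESeq2.

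Of 9 ligand and ligand-release genes, Scube3 and Scube1, whose secreted products help lipid-bearing Hedgehog leave the cell, fell in cKO cortex at both ages. Scube3 was at 6.30, 7.46 and 7.84 CPM in E14.5 cKO libraries A, B and C, against 18.9, 21.9 and 17.8 CPM in E14.5 WT libraries. At E16.5 Scube3 was at 6.97, 6.64 and 8.45 CPM in cKO libraries, against 20.4, 17.7 and 17.1 CPM in WT libraries. The genotypes were far apart relative to their spread, with log2 fold changes of -1.43 (SE 0.145, adjusted p = 0.0127) at E14.5 and -1.33 (SE 0.137, adjusted p = 0.00188) at E16.5. Scube1 was at 15.2, 31.9 and 26.4 CPM in E14.5 cKO libraries, against 57.5, 86.6 and 60.4 CPM in E14.5 WT libraries, a change of -1.47 (SE 0.276, adjusted p = 0.0473). At E16.5 it was at 50.5, 27.6 and 42.5 CPM in cKO libraries, against 100.2, 71.3 and 73.5 CPM in WT libraries, a change of -1.03 (SE 0.220, adjusted p = 0.0195). For both genes every cKO library was below every WT library at both ages. Scube2, at no more than 1.12 CPM in any library, overlapped between genotypes, at -0.43 (SE 0.562, adjusted p = 0.705) at E14.5 and 0.38 (SE 0.569, adjusted p = 0.688) at E16.5.

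Disp2, a relative of the ligand-releasing transporter Disp1, fell at E16.5 by 0.51 on the log2 scale (SE 0.139, adjusted p = 0.0456), with 59.9 CPM in cKO and 84.8 CPM in WT, and was at -0.91 (adjusted p = 0.121) at E14.5. Thus 2 of 6 tested genes of the list passed as lower at E14.5 and 3 of 6 at E16.5, beside 1.66% and 9.88% of all genes, and none passed as higher. The list medians were -0.88 and -0.76. With the block at E16.5, Hhat and Disp1 were lower too, 5 of 6 in all, beside 17.9% of all genes. Shh, Ihh and Dhh were below the count filter at both ages, with at most 9 counts for Ihh, 7 for Dhh and 5 for Shh in any library.

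Scube3 kept its E16.5 call in all 14 alternatives and lost that at E14.5 without WT C at -1.50 (adjusted p = 0.101) and without cKO C at -1.49 (adjusted p = 0.0935). Scube1 lost its E14.5 call without WT A at -1.58, without WT B at -1.26, without cKO B at -1.71, without WT C at -1.56 and without cKO C at -1.53, with adjusted p-values from 0.0695 to 0.197, and its E16.5 call without WT A at -0.86 (adjusted p = 0.0603). The E14.5 call of Scube1 was also lost with no filter on low counts (adjusted p = 0.0560) and with sex in the 12-library fit, at -1.78 (adjusted p = 0.0673). Without both WT B and cKO A, the E14.5 values were -1.26 (adjusted p = 0.00741) for Scube3 and -1.02 (adjusted p = 0.00812) for Scube1. Disp2 lost its call without WT A at -0.43, without WT B at -0.50, without cKO B at -0.44 and without cKO C at -0.42. It was also lost with library totals as scaling (adjusted p = 0.0552), in the 12-library fits with sex (adjusted p = 0.230) and without it (adjusted p = 0.188), and in the 6-library fit with sex (adjusted p = 0.0852).

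Among 15 other receptor-level and Smo-level genes, the glypicans Gpc6 and Gpc4, cell-surface proteoglycans, rose at E16.5. Gpc6 was at 50.9, 49.5 and 65.3 CPM in E16.5 cKO libraries, against 36.7, 38.0 and 41.0 CPM in E16.5 WT libraries, a change of 0.51 (SE 0.118, adjusted p = 0.0249). Gpc4 was at 124, 127 and 142 CPM in E16.5 cKO libraries, against 82.1, 95.5 and 107 CPM in E16.5 WT libraries, a change of 0.46 (SE 0.107, adjusted p = 0.0259). Arrb1, a beta-arrestin, fell by 0.44 on the log2 scale (SE 0.119, adjusted p = 0.0429), with 131 CPM in cKO and 178 CPM in WT. None of these genes overlapped between genotypes at E16.5, and 2 higher and 1 lower of 15 stand beside 5.98% and 9.88% of all genes. At E14.5 none of 15 passed (Gpc6 at 0.45, Gpc4 at 0.39 and Arrb1 at -0.55). With the block at E16.5, where 14.3% of all genes were called higher, Lrp2 was called higher too.

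These calls were also lost in fits that left out 1 library, where fewer genes were called in most cases. Gpc6 was at 0.47 without WT A, 0.50 without WT B and 0.57 without WT C, Gpc4 at 0.36 without WT A, 0.46 without WT B, 0.48 without cKO B and 0.40 without cKO C, and Arrb1 at -0.33 without WT A, -0.45 without WT B, -0.41 without cKO B and -0.38 without cKO C, each with an adjusted p above 0.05 and the same sign as before. Other settings ended some of them as well. Gpc6 was lost in the 12-library fit with sex (adjusted p = 0.0623), and Gpc4 there (adjusted p = 0.0762), without sex (adjusted p = 0.0549) and in the 6-library fit with sex (adjusted p = 0.0521). Arrb1 was lost with library totals as scaling (adjusted p = 0.0528), in the 12-library fits with sex (adjusted p = 0.181) and without it (adjusted p = 0.139), and in the 6-library fit with sex (adjusted p = 0.0823).

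Among 16 genes for the kinases, ubiquitin ligases and scaffolds that process Gli proteins, 4 fell and 1 rose at E16.5, beside 9.88% and 5.98% of all genes. Kif7, the ciliary kinesin that organises Gli and Sufu, rose to 24.99, 25.9 and 23.6 CPM in E16.5 cKO libraries, against 13.4, 17.6 and 16.9 CPM in E16.5 WT libraries, a change of 0.63 (SE 0.125, adjusted p = 0.0145). Spop, the adaptor of a ubiquitin ligase that acts on Gli proteins, was at 116, 116 and 118 CPM in E16.5 cKO libraries, against 160, 146 and 147 CPM in E16.5 WT libraries, a change of -0.38 (SE 0.0610, adjusted p = 0.00690). Their libraries did not overlap. Prkacb and Prkar1a, a catalytic and a regulatory subunit of protein kinase A, which marks Gli proteins for processing, were at -0.32 (SE 0.0588, adjusted p = 0.0110) and -0.30 (SE 0.0569, adjusted p = 0.0126). Csnk1a1, a casein kinase that acts after it, was at -0.32 (SE 0.0849, adjusted p = 0.0413). At E14.5 none of the 16 passed, with Kif7 at 0.41, Spop at -0.26, Prkacb at -0.36, Prkar1a at -0.27 and Csnk1a1 at -0.22. In E16.5 WT against E14.5 WT, Spop passed as higher, at 0.33 (SE 0.0701, adjusted p = 0.0406).

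Spop kept its cKO call at E16.5 in all 14 alternatives. Kif7 lost its call without cKO B at 0.60 (adjusted p = 0.0667), Prkacb without WT B at -0.33 and without cKO B at -0.30, and Prkar1a without WT B at -0.29 and without cKO B at -0.31. Csnk1a1 lost its call without WT A at -0.35, WT B at -0.30, cKO B at -0.33 and WT C at -0.29. The age call of Spop was lost without E14.5 WT A, E14.5 WT C, E14.5 cKO C, E16.5 WT A, E16.5 WT B, E16.5 cKO B or E16.5 WT C, at values from 0.29 to 0.36. Prkacb was also lost in the 12-library fits with sex (adjusted p = 0.14998) and without it (adjusted p = 0.113), Prkar1a in that with sex (adjusted p = 0.0704), and Csnk1a1 with library totals as scaling (adjusted p = 0.0529) and in the 6-library fit with sex (adjusted p = 0.0794). The age call of Spop was lost with no filter (adjusted p = 0.0526) and with sex in the fit (adjusted p = 0.0936) too.

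Of 13 ciliary transport genes that Gli processing needs, none passed in either cKO comparison without the block. The smallest p-values belonged to Ift88, a subunit of the intraflagellar transport machinery, at 0.27 (SE 0.102, adjusted p = 0.114) at E16.5, and to Tulp3, an adaptor for ciliary receptors, at 0.22 (SE 0.119, adjusted p = 0.337) at E14.5. With the block at E16.5, Ift88 at 0.27 (adjusted p = 0.0272) and Ift172 at 0.23 (adjusted p = 0.0234) were called higher, 2 of 13 beside 14.3% of all genes. Of 13 Hedgehog-responsive genes outside the members, 8 were tested at each age and none passed without the block. Ccnd2, a D-type cyclin, was at 0.36 (SE 0.178, adjusted p = 0.213) and Bcl2, a survival factor, at 0.20 (SE 0.0723, adjusted p = 0.105) at E16.5, and with the block both were called higher, at 0.35 (adjusted p = 0.00141) and 0.20 (adjusted p = 0.0195), 2 of 8 beside the same 14.3%. Olig2, which marks oligodendrocyte precursors and ventral progenitors, was at 0.0538, 0 and 0.780 CPM in E14.5 cKO libraries, against 0.450, 5.50 and 1.85 CPM in E14.5 WT libraries, and did not pass (adjusted p = 0.217). The Olig2 groups overlapped, and its highest library, WT B, was again the one with the highest ventral markers.

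**Figure D5:**
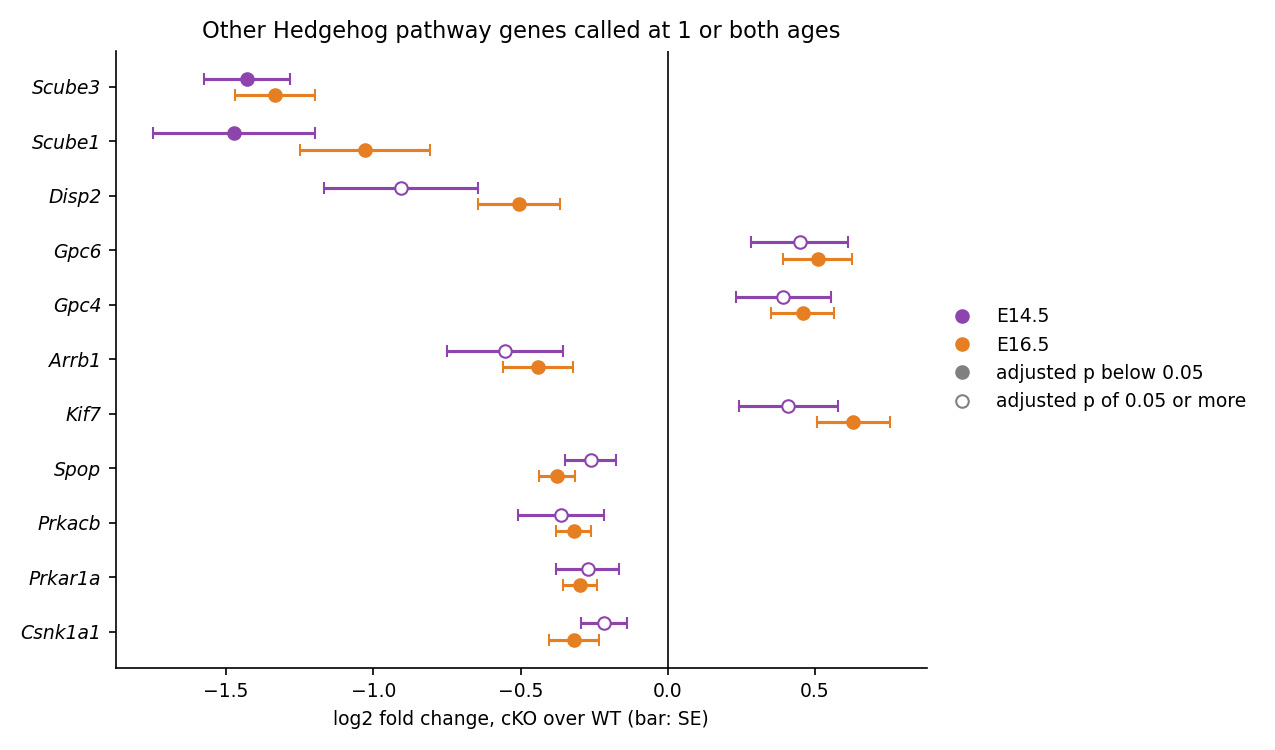
Log2 fold changes of cKO over WT (horizontal axis, point with SE as a bar) for the 11 other pathway genes that passed at 1 or both ages, with E14.5 in purple and E16.5 in orange, and filled points for an adjusted p below 0.05. Scube3 and Scube1 are filled at both ages, and the other genes at E16.5 alone, with the E14.5 point of each on the same side of 0.

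Radial glia, the cortical progenitors in which Hedgehog receptors are known to act, had similar marker sums in both genotypes. The 9 markers summed to 2293 to 2618 CPM in E14.5 cKO libraries, against 2313 to 2439 CPM in E14.5 WT libraries, and to 2269 to 2599 CPM in E16.5 cKO libraries, against 2320 to 2554 CPM in E16.5 WT libraries. At E16.5 Nes and Hes5 passed as higher and Ptprz1 as lower, 3 of 9, with a median of 0.24, and these 3 are named after their values were seen. These 3 of 9 stand beside 15.9% of all genes. With the block 4 of the 9 passed as higher and 3 as lower, beside 14.3% and 17.9% of all genes. Their part in the results above was not tested.

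The genes whose pattern was most like that of Ptch1 over the 12 libraries were Myo16, an unconventional myosin, with a Pearson r of 0.988, Csdc2, an RNA-binding cold-shock protein, with 0.985, and Olfm1, a secreted olfactomedin of neurons, with 0.982, by log CPM among 15337 genes. Myo16 averaged 13.4 CPM in E14.5 cKO and 38.6 CPM in E14.5 WT, and 29.1 CPM in E16.5 cKO and 53.1 CPM in E16.5 WT. Olfm1 averaged 57.5 CPM in E14.5 cKO and 103 CPM in E14.5 WT, and 91.1 CPM in E16.5 cKO and 110.4 CPM in E16.5 WT. Each had its lowest mean in E14.5 cKO and its highest in E16.5 WT, the order of the Ptch1 means at both ends. They were picked for their likeness to Ptch1 in these same libraries, so this shared order is not a further result. The 12 points also share their groups and libraries.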

How the data were processed

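Bulk RNA of dorsal cortex was measured in 12 libraries, which the labels group by age and genotype. Total RNA was prepared with TRIzol, per the labels' protocols. The aligner was STAR 2.5.2b and the genome mm10, per the submitters' processing notes. What the authors deposited are counts: fragments per gene, not normalised, from featureCounts 1.5.2 on the reverse strand (setting 2), with 25 bases as the smallest overlap, per the file headers. The authors also deposited, for each age, log2 fold changes of WT over knockout with their errors and with p-values, raw and adjusted, and DESeq2 1.14.1 is named in the submitters' processing notes. The 18 per-sample value columns of those tables were not used.

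The test was the quasi-likelihood F test of edgeR 4.0.16 in R 4.3.3, with limma 3.58.1 loaded. It used TMM scaling, the filterByExpr filter per group and a robust fit. The p-values were adjusted by Benjamini and Hochberg's method across every tested gene, and 0.05 was the threshold. Each age had its own fit, with 6 libraries and a genotype term. The WT age comparison and the age difference of the cKO effect used 1 fit of all 12 libraries. An SE is the absolute log2 fold change over the root of F. CPM use TMM effective library sizes, log CPM a prior count of 2, and levels per kilobase the exon length of the count table. The chi-square statistic per degree of freedom between libraries of a group lay between 9.06 and 48.3, so none was treated as a copy. Scripts were tested on simulated data.

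Pairing by the first title number was checked by the correlation over genes of the deviations of same-numbered cKO and WT libraries from their group means. At E16.5 these were 0.281, 0.210 and 0.112 for A, B and C, all above 0.1, so blocked values are given there where they change a call. The last is close to that limit, and over the 15338 genes of the 12-library fit it was 0.0926, below it. At E14.5 they were 0.272, 0.304 and -0.00218, and the numbers were not taken as pairs.

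The members and lists were chosen with earlier results of these data known. Text names the 10 members, Ash2l, up to 4 called genes by p of each other pathway list or else up to 2 as values, and the 3 genes most like Ptch1 by Pearson r, while Csnk1a1, Hhat, Disp1, Lrp2, Dlx1, Shh, Ihh, Dhh, Scube2, Hes1, Hes5 and the E14.5 values of genes called at E16.5 were added after their values were seen. Some genes of the lists are counted but not reported here by name. Alternatives were DESeq2 1.42.0, other scalings, no filter, the block, sex as a term and leaving out libraries. Promoter sequences are from RefSeq (GRCm38.p6) and were read for 8 of 10 members.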

Additional observations from a re-analysis of the deposited data

How the results depend on the processing

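Ptch1 kept its direction in each of 14 alternatives at each age. Of the results for single members, 431 kept direction and side of the threshold under an alternative, 15 passed it newly, 6 no longer passed and 20 turned in sign. The share of tested genes that were called depended on the fit. The cause was not tested, except that leaving out a library leaves fewer samples. At E14.5 the 2.01% became 8.64% with DESeq2 (1 member, Ptch1), 8.65% with the replicate block (1 member, Ptch1 at -1.005 with adjusted p = 0.00365), 8.71% in the 12-library fit without sex (1 member), 0.835% in that fit with sex, and 4.15% without both WT B and cKO A. Leaving out 1 library gave 0.0334% to 2.35%. At E16.5 the 15.9% became 32.2% with the replicate block (2 members) and 10.2% in the 12-library fit with sex. There 0 members passed with sex (Ptch1 adjusted p = 0.107) and 0 without it (adjusted p = 0.0913). Leaving out 1 library gave 6.50% to 19.0%, and 0 members rather than 1 without WT A, WT B, WT C or cKO B. The replicate block gave 1 gene, or 0.00652%, for the age difference, against 0. For E16.5 WT over E14.5 WT the 2.15% became 13.1% with DESeq2 (3 members) and 0.0652% with sex, and leaving out 1 library gave 0.00640% to 14.2% and 0 to 3 members. No replicate block was possible for E16.5 WT over E14.5 WT, because the numbers are not shared between ages. At E14.5 libraries A and B correlated best with their own number, and libraries C did not. With the block at E16.5, Gsk3b was also called lower.

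Signs that turned belonged to values that did not pass. At E14.5 the 12-library fit with sex gave 0.51 for Gli1, -0.035 for Gli3 and -0.060 for Cdon. Without both WT B and cKO A the values were -0.13 for Smo, 0.13 for Gli1, -0.15 for Gli3, -0.034 for Boc and -0.18 for Cdon. Leaving out 1 library at E14.5 gave -0.66 to 0.13 for Gli1, -0.28 to 0.019 for Gli2, -0.010 to 0.32 for Gli3 and -0.016 to 0.39 for Cdon. At E16.5 it gave -0.056 to 0.22 for Smo, -0.52 to 0.13 for Gli1, -0.055 to 0.13 for Gli2, -0.086 to 0.36 for Gli3 and -0.13 to 0.34 for Cdon. Hhip, with at most 18 counts in an E14.5 library, is limited by depth.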
